A study of Mus musculus with 24 samples.

Results

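The livers of mice given siKeap1-2, the weaker of a pair of siRNAs against the murine Keap1 transcript, were compared with those of mice given siControl. Of the 24 arrays of the series, 16 entered this comparison, 8 per group, and the measurements cover 18194 genes, each read from its brightest probe set. The mice were male C57BL6/J animals of 8 weeks that received a Western diet, a high-fat diet with sucrose in the drinking water, and were injected weekly for 7 weeks with 1 mg/kg of chemically modified siRNA in lipid nanoparticles, which carry it mainly to hepatocytes. siControl is an unspecific scrambled siRNA with the same kind of modification, so both groups shared the diet, the carrier and the injections. Per the study's methods the arrays of each group came from fed and from fasted mice in equal numbers, but the labels do not say which mouse was which, and feeding state therefore could not enter any fit. Only 1 siRNA sequence defines the siKeap1-2 group, so that within this comparison lowering of Keap1 and any other effect of that sequence cannot be told apart. The stronger siRNA, siKeap1-1, was given to 8 further mice in the same way. Their arrays entered the shared fit, which pools the spread of the 3 groups. Otherwise siKeap1-1 is used below only to show where siKeap1-2 differed from it.

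Keap1 is the substrate adaptor of a ubiquitin ligase that holds the transcription factor Nrf2 (gene Nfe2l2) in the cytoplasm and marks it for the proteasome. When Keap1 is lost or its cysteines are modified, Nrf2 escapes degradation, pairs with a small Maf protein and binds antioxidant response elements near genes for glutathione synthesis, quinone and carbonyl reduction, conjugation and export. In liver this programme is best known from the response to electrophilic drugs and toxins, and it acts beside the receptors CAR and PXR, which control overlapping sets of drug-metabolising enzymes.

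The element that Nrf2 and small Maf proteins recognise has the core letters TGACNNNGC, which were searched on both strands from 250 bases before to 50 bases after each annotated start. Sequences come from RefSeq on GRCm38.p6 and are written 5′ to 3′ on the strand of the gene, with the matched core in capitals. Shown are the matches that lie wholly before the start in 5 genes with higher signal in the siKeap1-2 group, chosen to cover export (Abcc4, 2 annotated starts), thioredoxin reduction (Txnrd1), supply of glucuronic acid (Ugdh), the proteasome (Psmb5) and an epithelial gene that also separated the Keap1 siRNAs (Kdf1).
Abcc4 chr14:118706226-118706254, minus strand: gccccgagagGCGGGGTCAgggcgggccg
Abcc4 chr14:118676936-118676964, minus strand: aataatctcgTGACTCTGCcgtggtggat
Txnrd1 chr10:82859104-82859132, plus strand: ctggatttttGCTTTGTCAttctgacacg
Ugdh chr5:65435956-65435984, minus strand: gcggagcccgTGACTTAGCtggagctgat
Ugdh chr5:65435918-65435946, minus strand: tcctcaagggGCGTGGTCAtacagttcgg
Psmb5 chr14:54618024-54618052, minus strand: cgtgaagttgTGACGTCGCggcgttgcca
Kdf1 chr4:133518733-133518761, plus strand: ctgttccacaTGACAGAGCtagggactca
These letters are common: 14.0% of the 27025 genes in the promoter table hold a match in at least 1 window, as do 16.1% of the 14368 genes of the array that are in the table. Among the genes higher with siKeap1-2 the share was 19.5% (80 of 410), among those lower 16.7% (93 of 558), and among those higher by more than 1 log2 unit 18.8% (12 of 64). A match is a description of the letters and not a binding site, and genes with more annotated starts have more windows (1.30 per gene among those higher, 1.25 among those on the array).

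The targeted transcript was low in every siKeap1-2 liver. Keap1 log2 signal on its brighter probe set was lowest 8.03, median 8.23 and highest 8.59 with siKeap1-2, against 9.33, 9.57 and 10.03 with siControl. No siKeap1-2 value reached a siControl value. The log2 fold change was -1.36 (SE 0.11, limma adjusted p = 1.89e-08), which is 38.8% of the siControl level, and the exact two-sided permutation test of this single value gave p = 0.000155, the smallest that its 12870 arrangements allow. With siKeap1-1 the same probe set lay at 7.21, 7.47 and 7.93, again without overlap, and Keap1 was 0.76 log2 units higher with siKeap1-2 than with siKeap1-1 (SE 0.11, limma adjusted p = 0.0022), so that siKeap1-2 was the weaker of the pair on these arrays. A second and dimmer Keap1 probe set was lower by a log2 difference of -0.44 (limma adjusted p = 0.026) against siControl and did not separate the Keap1 siRNAs (-0.02, adjusted p = 0.974).

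The transcript of Nrf2 itself fell with siKeap1-2. Nfe2l2 lay at 10.69, 11.00 and 11.09 (lowest, median, highest log2 signal) with siKeap1-2 and at 11.06, 11.42 and 11.89 with siControl, so that the groups met only at their edges. Its log2 fold change was -0.49 (SE 0.09, limma adjusted p = 0.00117), and -0.42 (adjusted p = 0.136) with the 18S signal of each array, described below, as a covariate. Against siControl replicates 1 to 3 it was -0.45 (adjusted p = 0.0235), and a second Nfe2l2 probe set did not pass (-0.26, adjusted p = 0.423). Mafk, a small Maf partner, rose by 0.36 (SE 0.09, adjusted p = 0.0164), a call that was lost with that covariate (0.37, adjusted p = 0.256) and against siControl replicates 1 to 3 (0.50, adjusted p = 0.0507). Of the 13 measured genes of the sensor and ligase list 1 rose and 2 fell, and Cul3, the scaffold of the ligase (-0.11, adjusted p = 0.212), and Bach1, a repressor at the same elements (0.03, adjusted p = 0.897), were among the 10 that did not pass. That list had 23.1% called, beside 6.6% over all genes.

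**Figure D1:**
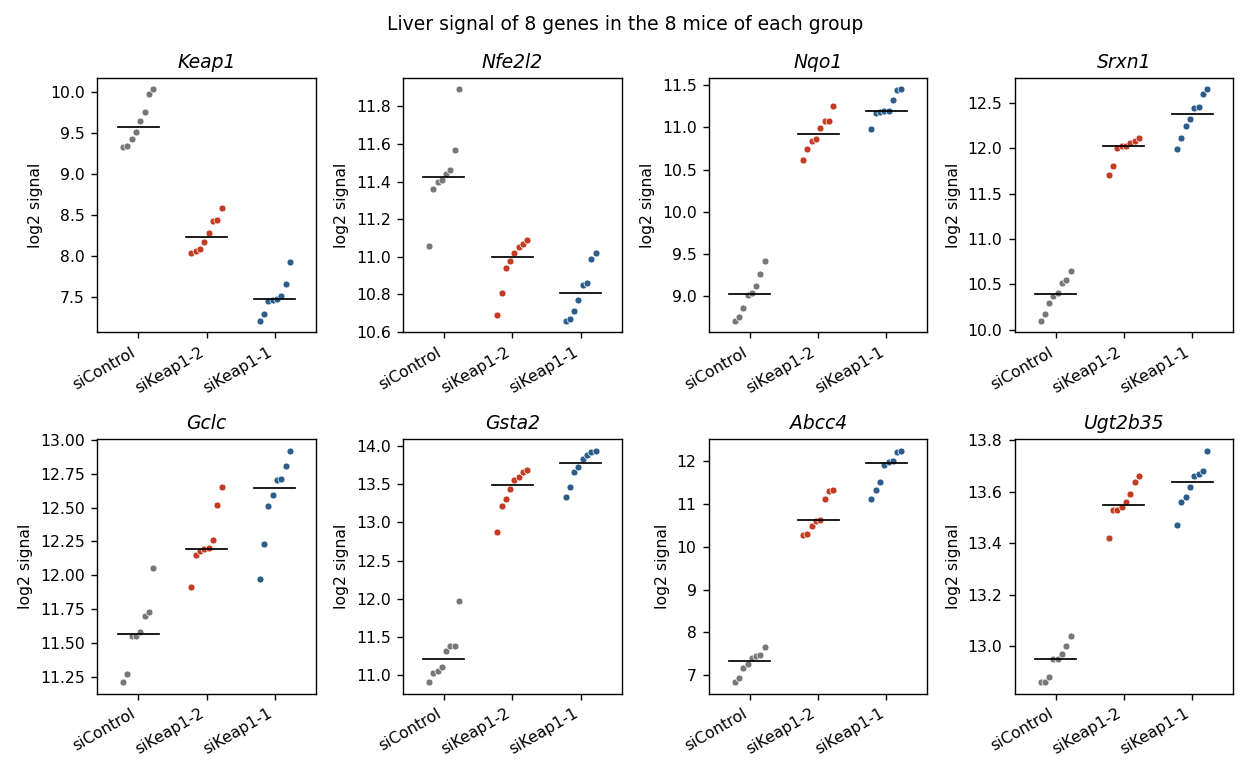
Log2 RMA signal (vertical axes, each with its own range) of 8 genes in each of the 8 siControl (grey), siKeap1-2 (red) and siKeap1-1 (blue) livers; each point is 1 mouse, sorted by value, and the line is the group's median. The siKeap1-2 mice lie apart from all siControl mice for Keap1 (8.03 to 8.59 against 9.33 to 10.03), Nqo1, Srxn1, Gsta2, Abcc4 and Ugt2b35, while the groups touch for Nfe2l2 and Gclc.

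Across the liver transcriptome, 1200 of 18194 genes (6.6%) differed between siKeap1-2 and siControl in limma's test at an adjusted p under 0.05, adjusted over 45037 probe sets. Of these, 518 rose (2.85% of genes tested) and 682 fell (3.75%); after quantile normalization of the deposited values the split was 599 and 576, after centring the arrays on their medians 484 and 772, and with probe sets averaged within genes 655 and 605. Rises were the larger changes: 91 genes rose and 24 fell by more than 1 log2 unit, 18 rose and 0 fell by more than 2, and 6 rose by more than 3. The median change was 0.44 among the genes that rose and -0.39 among those that fell, and 296 and 499 of them changed by under 0.5. Over all genes the median log2 fold change was -0.01, with a 5th percentile of -0.35 and a 95th percentile of 0.27. For 171 genes (0.94%) every siKeap1-2 mouse was above every siControl mouse and for 85 genes (0.467%) every one was below. Of these, 55 were higher and 2 lower by more than 1 log2 unit. The 2 were Keap1 and C730036E19Rik (-1.08), a transcript without an assigned role that is named after its value was seen.

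These counts depended on the siControl mice. An 18S ribosomal RNA probe set among the manufacturer's controls, which reads ribosomal RNA rather than messenger RNA, was at 10.45 to 11.12 with siKeap1-2, 10.34 to 10.77 in siControl replicates 1 to 3 and 8.86 to 9.54 in siControl replicates 4 to 8. With that signal as a covariate 163 genes were higher (0.896%) and 23 lower (0.126%), and against siControl replicates 1 to 3 alone 186 were higher (1.02%) and 28 lower (0.154%). Of the 518 genes that rose, 154 and 174 were still called and 516 and 518 kept their sign. Of the 682 that fell, 19 and 20 were still called while 680 and 682 kept their sign, and their median change moved from -0.39 to -0.27 and -0.28. The median standard error over all genes was 0.09 with all mice and 0.12 in both of these fits. The count of falls also rested on single mice: without siControl replicate 6, 7 or 8 it was 445, 430 and 426, and without siKeap1-2 replicate 2 it was 413. The other murine 18S control probe sets did not separate the siControl mice in this way. There replicates 1 to 3 read 5.97 to 6.26 and 4.525 to 4.94, and replicates 4 to 8 read 5.82 to 6.53 and 4.45 to 4.91. What part the 18S signal has in the changes was not tested.

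**Figure D2:**
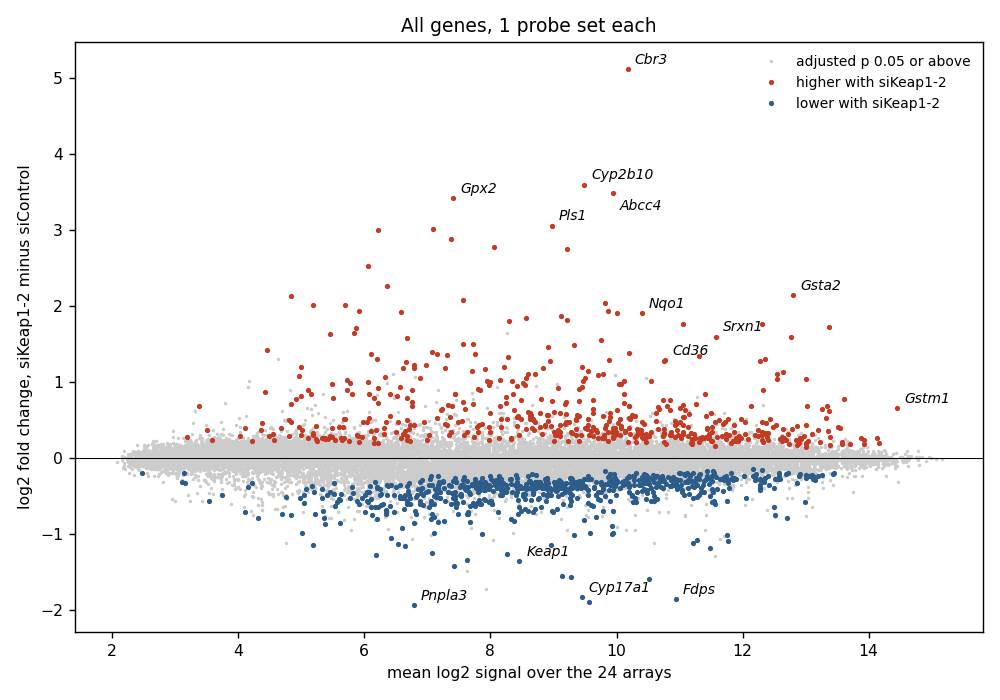
Log2 fold change of siKeap1-2 against siControl (vertical axis) by mean log2 signal over the 24 arrays (horizontal axis), 1 point per gene; red and blue points passed an adjusted p of 0.05 as higher (518) or lower (682), grey points did not. Rises reach 5.12 at Cbr3, while no fall exceeds 2 log2 units, and Gsta2 and Gstm1 rose although they are among the brightest genes.

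Many of the Nrf2 target enzymes rose. Of 21 measured antioxidant enzymes 11 rose and 0 fell, 7 of them without overlap of the groups, beside 2.85% of all genes higher and 0.94% higher without overlap, and their median log2 fold change was 0.32 against -0.01 over all genes. Averaged over the list, log2 signal was 11.74, 11.84 and 11.94 (lowest, median, highest mouse) with siKeap1-2 and 10.87, 10.99 and 11.20 with siControl, so that every siKeap1-2 mouse was above every siControl mouse. With the 18S covariate 8 of the 11 were still called, and 9 against siControl replicates 1 to 3.

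The largest rise in the liver was that of a carbonyl reductase. Cbr3 went from 5.71, 6.49 and 7.69 with siControl to 11.15, 11.69 and 12.05 with siKeap1-2, a 34.9-fold difference (log2 5.12, SE 0.20, limma adjusted p = 1.95e-14). Its paralog Cbr1 rose by 1.59 (adjusted p = 3.01e-12). The quinone reductase Nqo1 lay at 8.71, 9.03 and 9.42 with siControl and at 10.61, 10.93 and 11.25 with siKeap1-2 (log2 fold change 1.91, SE 0.10, adjusted p = 3.01e-12). None of these 3 genes overlapped between the groups, and the change of Nqo1, though smaller, carried a smaller SE than that of Cbr3.

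The thiol branch changed by smaller steps. Srxn1, which repairs over-oxidised peroxiredoxins, lay at 11.71, 12.03 and 12.12 with siKeap1-2 and at 10.10, 10.39 and 10.65 with siControl (log2 fold change 1.60, SE 0.09, limma adjusted p = 2.77e-11), and its second probe set gave 1.66. Txnrd1, thioredoxin reductase, rose by 0.37 (SE 0.06, adjusted p = 0.000217) from an already bright 12.91 to 13.27 in the medians. Gclc, the catalytic subunit of the first enzyme of glutathione synthesis, rose by 0.68 (SE 0.13, adjusted p = 0.00235) on its brightest probe set, with 11.91 to 12.65 against 11.21 to 12.05, and by 1.53 (adjusted p = 6.30e-07) on another. Gsr, glutathione reductase, rose by 0.32 (adjusted p = 0.00928), a call that was lost with the 18S covariate (0.28, adjusted p = 0.317) and against siControl replicates 1 to 3 (0.27, adjusted p = 0.317). A second Gsr probe set did not pass (0.24, adjusted p = 0.152). Gclm, the modifier subunit (0.26, adjusted p = 0.0533), the cystine carrier Slc7a11 (-0.01, adjusted p = 0.979) and Hmox1, heme oxygenase (-0.30, adjusted p = 0.623), did not pass, nor did the dismutases Sod1 and Sod2.

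Glutathione peroxidases and heme breakdown were uneven. Gpx2, a selenoprotein best known from gut epithelium, rose from 4.80, 5.23 and 5.90 with siControl to 8.03, 8.76 and 9.36 with siKeap1-2 (log2 fold change 3.42, SE 0.21, limma adjusted p = 6.28e-11). Gpx4, which removes lipid hydroperoxides, rose by 0.27 (adjusted p = 0.0163). Blvrb, biliverdin reductase B, lay at 12.48, 12.70 and 12.88 with siKeap1-2 and at 11.09, 11.39 and 11.79 with siControl, a log2 fold change of 1.30 (SE 0.08, adjusted p = 1.24e-10). It was 1 of 2 genes that rose among the 19 measured genes of heme and iron handling, the other being the iron exporter Slc40a1 (0.21, adjusted p = 0.0419), whose call was lost with the 18S covariate (0.27, adjusted p = 0.182) and against siControl replicates 1 to 3 (0.22, adjusted p = 0.269). Genes that supply NADPH to these reductases did not pass: 0 of 9 measured were called, with a median of 0.14, and Me1 stood at 0.01 (adjusted p = 0.991).

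Glutathione S-transferases rose in part of the family. Of 20 measured, 8 rose and 0 fell, 6 without overlap, again beside 2.85% and 0.94% of all genes, with a median log2 fold change of 0.27. The list's mean signal was 12.01, 12.22 and 12.36 with siKeap1-2 and 11.43, 11.60 and 11.82 with siControl. Gsta2 rose most, from 10.91, 11.21 and 11.97 to 12.88, 13.49 and 13.69 (log2 fold change 2.15, SE 0.13, limma adjusted p = 6.28e-11), and the 1 siControl mouse at 11.97 still lay below every siKeap1-2 mouse. In the mu class Gstm4 rose by 1.76, Gstm3 by 1.72, Gstm2 by 1.28 and Gstm1 by 0.66, with the adjusted p between 5.77e-09 and 2.55e-05. Gstm1 was bright in both groups, at 13.77 to 14.15 with siControl and 14.56 to 14.72 with siKeap1-2. The microsomal enzyme Mgst3 rose by 1.56 (SE 0.17, adjusted p = 2.35e-06), but a second probe set did not pass (0.38, adjusted p = 0.0632). Gsta4, which acts on lipid aldehydes, rose by 1.13 (SE 0.20, adjusted p = 0.000929) with a slight overlap, 12.39 to 13.30 against 10.67 to 12.54. Members that did not pass include Gsta3 (0.03, adjusted p = 0.791), Gstp1 (0.09, adjusted p = 0.197) and Mgst1 (-0.02, adjusted p = 0.866). Mu and alpha class transcripts are close in sequence, so that probe sets may read more than 1 member.

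Among 33 measured phase I genes 5 rose and 2 fell (21.2% called, beside 6.6% over all genes), with a median of 0.04. Cyp2b10, the standard target of the receptor CAR, varied widely: 9.30, 10.53 and 12.19 with siKeap1-2 against 3.85, 7.49 and 9.80 with siControl, with 1 siControl mouse above the lowest siKeap1-2 mouse (log2 fold change 3.60, SE 0.65, limma adjusted p = 0.00137). Its paralog Cyp2b9 rose by 2.01 (SE 0.46, adjusted p = 0.00928), which was 2.23 (adjusted p = 0.135) with the 18S covariate and 2.06 (adjusted p = 0.203) against siControl replicates 1 to 3, so that the call was lost while the fold was not smaller. Cyp2g1 lay at 7.85 to 8.32 with siKeap1-2 and at 5.81 to 7.30 with siControl (log2 fold change 1.37, SE 0.18, adjusted p = 4.41e-05). Microsomal epoxide hydrolase, Ephx1, rose by 0.78 (adjusted p = 6.97e-06) and aldehyde oxidase, Aox1, by 0.69 (adjusted p = 3.31e-06). Cyp2c38 fell by 1.26 on the log2 scale (adjusted p = 0.00556). The receptor gene Nr1i2, which encodes PXR, was lower (-0.32, adjusted p = 0.0378), whereas Nr1i3, which encodes CAR, stood at 0.29 (adjusted p = 0.444) and the PXR target Cyp3a11 at -0.32 (adjusted p = 0.189). Neither fall of this list was called with the 18S covariate or against siControl replicates 1 to 3.

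Carboxylesterases, aldo-keto reductases, and aldehyde and alcohol dehydrogenases together gave 6 rises and 1 fall among 25 measured, with a median of 0.01. The share called was 28.0%, beside 6.6% over all genes. Ces1g, a liver carboxylesterase, tightened as it rose, from 11.75, 12.24 and 12.85 with siControl to 13.16, 13.31 and 13.38 with siKeap1-2 (log2 fold change 1.04, SE 0.10, limma adjusted p = 4.43e-07). Akr1b8, an aldo-keto reductase, rose by 0.65 (adjusted p = 0.0016) without overlap. The single fall was the alcohol dehydrogenase Adh7 (-0.40, adjusted p = 0.0131). With the 18S covariate, and likewise against siControl replicates 1 to 3, the list gave 3 rises and 0 falls.

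Genes that make and transfer glucuronic acid were among those that rose. Ugdh, which makes UDP-glucuronic acid, lay at 13.19, 13.45 and 13.64 with siKeap1-2 and at 12.82, 12.90 and 13.02 with siControl (log2 fold change 0.53, SE 0.06, limma adjusted p = 4.43e-06), and Ugp2, which makes its substrate, rose by 0.26 (adjusted p = 0.00616). Ugt2b35, a transferase, rose by 0.62 with an SE of 0.05 (adjusted p = 8.77e-09), with 13.42 to 13.66 against 12.86 to 13.04. In all, 6 of 20 measured genes of glucuronidation and sulfation rose and 0 fell, beside 2.85% of all genes higher, with a median of 0.11. Ugp2 and the sulfotransferase Sult1b1 (0.54, adjusted p = 0.0412) were not called with the 18S covariate or against siControl replicates 1 to 3.

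Of 22 measured transporters 8 rose and 0 fell, beside 2.85% of all genes higher. All 8 encode ABC transporters, which make up most of the list. The median of the list was 0.01, with 11 genes above 0, and other ABC transporters such as Abcb11 (-0.25, adjusted p = 0.311) and Abcb4 (0.04, adjusted p = 0.896) did not pass. Abcc4, an exporter of conjugates at the sinusoidal membrane, lay at 10.28, 10.62 and 11.32 with siKeap1-2 and at 6.84, 7.33 and 7.65 with siControl, an 11.2-fold difference (log2 3.49, SE 0.18, limma adjusted p = 2.59e-12). Abcc12 rose by 2.88 (SE 0.26, adjusted p = 8.21e-08) and Abcc3, an exporter of glucuronides and bile acids, by 1.04 (SE 0.14, adjusted p = 3.21e-05), both without overlap. A second Abcc12 probe set rose less (0.60, adjusted p = 0.0355). Abcc1 (0.64), Abcg8 (0.54), Abcg2 (0.47), Abcg5 (0.43) and Abcc2 (0.33) made up the rest, with the adjusted p between 0.00125 and 0.0133. The uptake carriers Slco1a1 (-0.24, adjusted p = 0.128), Slco1a4 (-0.68, adjusted p = 0.165), Slco1b2 (-0.10, adjusted p = 0.309) and Slc10a1 (-0.07, adjusted p = 0.487) did not pass. With the 18S covariate 3 of the 8 were still called, and 4 against siControl replicates 1 to 3.

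**Figure D3:**
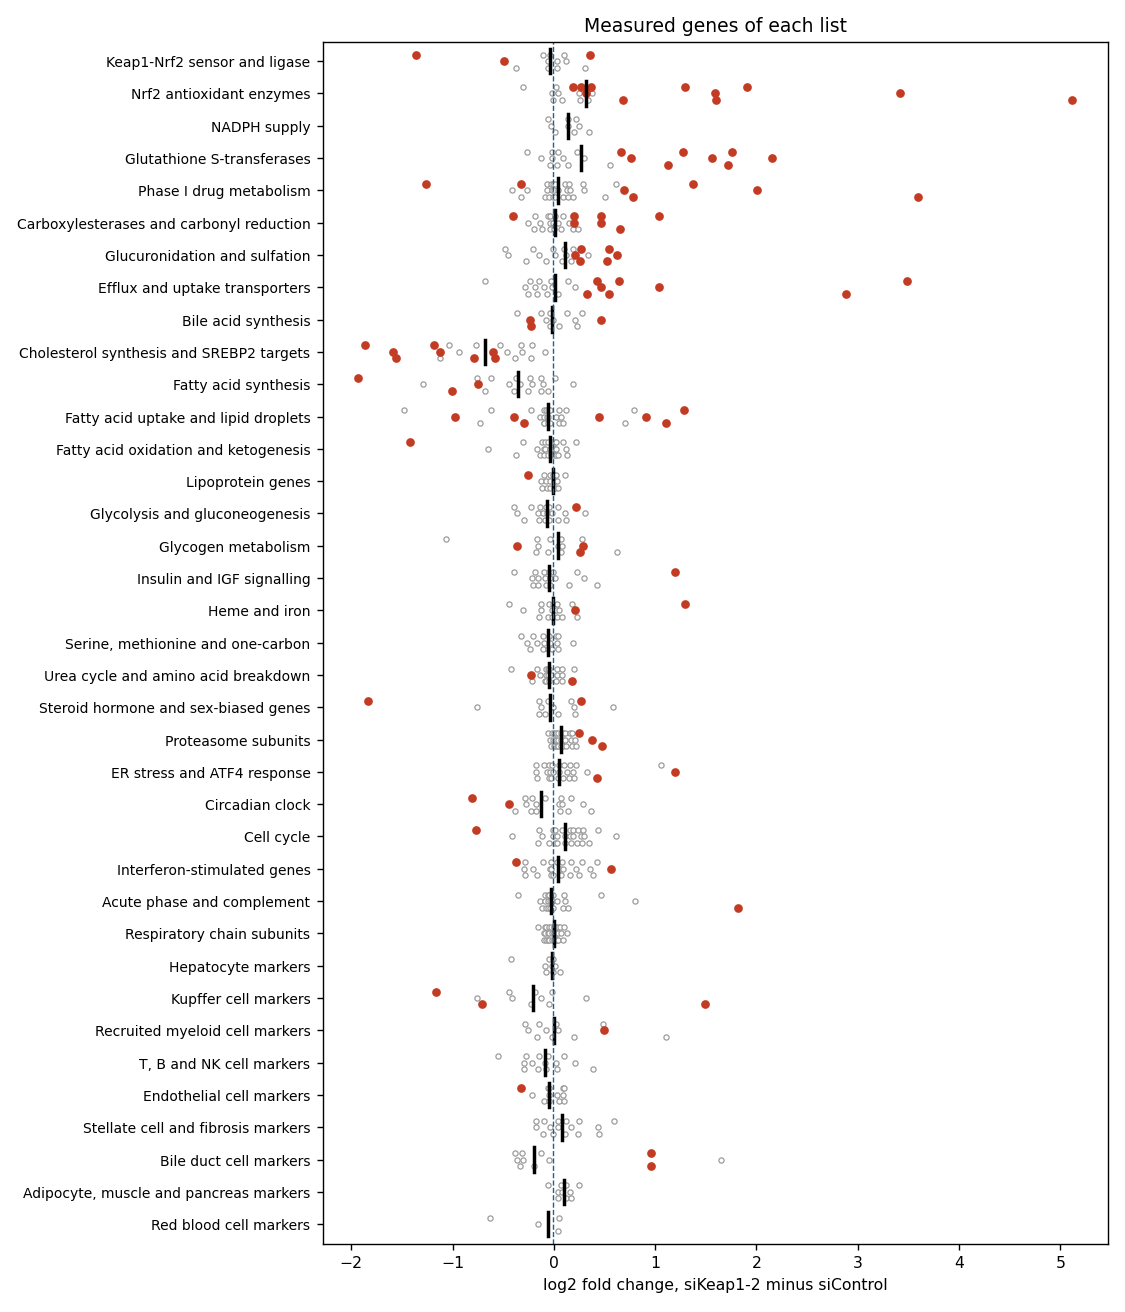
Log2 fold change of siKeap1-2 against siControl (horizontal axis) for the measured genes of each list (rows); red points passed an adjusted p of 0.05, open points did not, black bars are list medians and the dashed line is the median over all genes (-0.01). The largest rises of the lists are Cbr3 (5.12), Cyp2b10 (3.60), Abcc4 (3.49) and Gpx2 (3.42), and cholesterol synthesis has the lowest median (-0.68).

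Other large rises were in genes of varied roles outside drug metabolism. Pls1, an actin-bundling protein of microvilli, lay at 9.98, 10.39 and 10.69 with siKeap1-2 and at 6.68, 6.98 and 8.27 with siControl (log2 fold change 3.06, SE 0.27, limma adjusted p = 4.87e-08). Slc1a1, a glutamate and cysteine carrier, rose by 3.00 (SE 0.24, adjusted p = 9.11e-09), although its second probe set stood at 0.08. Tafa2, a secreted peptide, rose by 3.02 (SE 0.34), the surface protein Ly6d by 2.78 (SE 0.36), the protease inhibitor Serpinb1a by 2.75 (SE 0.43) and the syntenin paralog Sdcbp2 by 2.26 (SE 0.25), none with overlap and with the adjusted p between 1.66e-06 and 0.000302. Tinag, a basement membrane protein, rose by 2.53 (SE 0.45, adjusted p = 0.00108) but ranged from 4.71 to 8.14 with siKeap1-2 and overlapped with siControl (3.84 to 4.82). Smpx (2.13, adjusted p = 0.00515) and Usp50 (2.08, adjusted p = 0.000699) were the last of the 15 largest rises. Smpx was not called with the 18S covariate (2.15, adjusted p = 0.148) or against siControl replicates 1 to 3 (2.16, adjusted p = 0.172), Tinag not against the latter (2.47, adjusted p = 0.101), and the second probe set of Usp50 stood at 0.07.

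Genes of cholesterol synthesis were lower in some siKeap1-2 mice and not in others. Of 20 measured, 8 fell and 0 rose, beside 3.75% of all genes lower. All 20 had a negative log2 fold change and the median was -0.68, yet none was without overlap. The mean log2 signal of the list in the 8 siKeap1-2 mice was 10.43, 10.88, 10.96, 11.02, 11.81, 11.87, 12.05 and 12.17, an SD of 0.65, while the siControl mice lay at 11.96 to 12.47 with an SD of 0.19. So 6 siKeap1-2 mice were below every siControl mouse, 4 of them at 11.02 or lower, and the 2 highest were within the siControl range. Fdps, farnesyl diphosphate synthase, reached 7.95 to 11.90 with siKeap1-2 and 11.72 to 12.68 with siControl (log2 fold change -1.86, SE 0.53, limma adjusted p = 0.0375), although its second probe set stood at -0.01 (adjusted p = 0.961). Sqle, squalene epoxidase, fell by 1.59 on the log2 scale (SE 0.48, adjusted p = 0.0485) and Mvd, mevalonate diphosphate decarboxylase, by 1.56 (SE 0.41, adjusted p = 0.023), and Msmo1, a sterol oxidase, by 1.18 (adjusted p = 0.0294). Second probe sets of Mvd and Msmo1 gave -1.27 (adjusted p = 0.0329) and -1.01 (adjusted p = 0.0875). No gene of the list was called with the 18S covariate or against siControl replicates 1 to 3, although its median against the latter was also -0.68.

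Fatty acid synthesis was lowest in the same 4 siKeap1-2 mice, replicates 2, 3, 5 and 6, and spread among the controls as well. Of 20 measured genes 3 fell and 0 rose, beside 3.75% of all genes lower, with a median of -0.35. The list's mean signal lay at 11.26, 11.73 and 12.19 with siKeap1-2 and at 11.60, 12.47 and 12.62 with siControl, with 3 siControl mice at 11.60, 11.76 and 11.79 and the other five at 12.46 or above. Pnpla3, a lipid droplet protein under the control of insulin, was at 5.29 to 7.04 with siKeap1-2 and at 5.23 to 10.28 with siControl (log2 fold change -1.93, SE 0.58, limma adjusted p = 0.0485). Elovl6, a fatty acid elongase, fell by 1.01 on the log2 scale (adjusted p = 0.0418) and the desaturase Fads1 by 0.75 (adjusted p = 0.00436). Fasn, fatty acid synthase, at -1.29 (adjusted p = 0.115) and Srebf1 at -0.76 (adjusted p = 0.352) did not pass. No gene of this list was called with the 18S covariate or against siControl replicates 1 to 3. Feeding state is known to move the genes of both lists, and its part in these values was not tested because the labels do not give it.

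Uptake and storage of fatty acids moved in both directions, with 4 rises and 3 falls among 31 measured genes (22.6% called, beside 6.6% over all genes). Cd36, a fatty acid translocase, lay at 10.65, 11.14 and 11.53 with siKeap1-2 and at 9.01, 9.90 and 10.42 with siControl (log2 fold change 1.29, SE 0.17, limma adjusted p = 2.47e-05). Lpl, lipoprotein lipase, lay at 12.62, 12.98 and 13.40 against 11.05, 12.03 and 12.29 (log2 fold change 1.11, SE 0.16, adjusted p = 0.000177). Neither overlapped, both rose on a second probe set (1.02 and 1.37), and both were called in the 18S fit and against siControl replicates 1 to 3. Acsl3, an acyl-CoA synthetase of lipid droplets, fell without overlap, from 10.46, 10.64 and 11.00 to 8.96, 9.88 and 10.28 (log2 fold change -0.98, SE 0.20, adjusted p = 0.00404), but was not called in the 18S fit (-0.91, adjusted p = 0.182).

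Other metabolic lists held few changes. Among 28 genes of fatty acid oxidation and ketogenesis 0 rose and 1 fell, the peroxisomal transporter Abcd2 (-1.42, limma adjusted p = 0.0283). Lipoprotein genes gave 1 fall in 19 (Abca1, -0.25) and bile acid synthesis 1 rise and 2 falls in 14, with Acox2, which shortens the bile acid side chain, at 0.47, Nr1h4, the bile acid receptor, at -0.24 and Cyp27a1 at -0.23. Glycolysis and gluconeogenesis gave 1 rise in 20 (Aldoa, 0.22), glycogen metabolism 2 rises (Phkb, 0.29, and Ugp2, 0.26) and 1 fall (Phka1, -0.36) in 15, and insulin and IGF signalling 1 rise in 19, which was Trib3, an inhibitor of Akt (1.20, SE 0.30, adjusted p = 0.0184). Urea cycle and amino acid breakdown gave 1 rise (Tdo2, 0.18) and 1 fall (Glud1, -0.23) in 22. In serine and one-carbon metabolism 0 of 17 genes and in the respiratory chain 0 of 35 were called, with medians of -0.06 and 0.00. The share called was 21.4% in bile acid synthesis, 20.0% in glycogen metabolism and 9.09% or below in the other lists of this paragraph, beside 6.6% over all genes. Of the called genes named in this paragraph, Acox2 alone was also called with the 18S covariate, and Acox2, Aldoa and Phkb against siControl replicates 1 to 3.

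Of 33 proteasome subunits 3 rose and 0 fell, with a median of 0.07, and the share called, 9.09%, was near the 6.6% over all genes. The ER stress and interferon lists, each with 7.69% called, were near it as well. Psmb5, a catalytic subunit, was at 12.71 or above in every siKeap1-2 mouse, with a median of 12.85, and at 12.39, 12.49 and 12.56 with siControl (log2 fold change 0.38, SE 0.05, limma adjusted p = 5.28e-05), and it was the only subunit called in the 18S fit and against siControl replicates 1 to 3. Psmd1 rose by 0.48 (adjusted p = 0.000195) and Psmd11 by 0.25 (adjusted p = 0.00782). Trib3 and Atf3 (0.43, adjusted p = 0.0219) were the 2 rises among 26 genes of ER stress and the ATF4 response. Per2 (-0.81, adjusted p = 0.00799) and Per3 (-0.44, adjusted p = 0.0231), repressors of the circadian clock, were the 2 falls among 18 clock genes (11.1% called). A second probe set stood at 0.15 for Per2 (adjusted p = 0.45) and at -0.36 for Per3 (adjusted p = 0.33). Ccnd1, cyclin D1, fell by 0.77 on the log2 scale (adjusted p = 0.0454), the only call among 29 cell cycle genes (3.45%). Of 26 interferon-stimulated genes Oasl1 rose (0.56) and Stat2 fell (-0.37), and of 24 acute phase genes (4.17% called) Orm3 rose (1.82, SE 0.37, adjusted p = 0.00422). Orm3 overlapped between the groups, with 7.40 to 10.42 with siKeap1-2 and 6.56 to 8.82 with siControl. Its call was lost with the 18S covariate (2.08, adjusted p = 0.0613) and kept against siControl replicates 1 to 3 (2.43, adjusted p = 0.0189). None of the calls named here for stress, clock, cell cycle and interferon genes held in the 18S fit or against siControl replicates 1 to 3.

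Among the remaining large falls, Tff3, a secreted trefoil peptide, went from 10.07, 11.15 and 12.09 with siControl to 8.21, 8.74 and 11.25 with siKeap1-2 (log2 fold change -1.89, SE 0.38, limma adjusted p = 0.00379). Cyp17a1, a steroid hydroxylase, went from 10.53, 10.83 and 11.78 to 8.16, 8.59 and 11.07 (log2 fold change -1.83, SE 0.34, adjusted p = 0.00178). In both genes siKeap1-2 replicates 1 and 5 lay inside the siControl range, and every other siKeap1-2 mouse was below it. These replicates read 10.17 and 11.25 for Tff3 and 10.79 and 11.07 for Cyp17a1. Adgrv1, an adhesion receptor, fell by 1.55 on the log2 scale (SE 0.26, adjusted p = 0.000573), with 7.53 to 9.45 against 9.41 to 10.97, and was the only gene besides Keap1 among the 15 largest falls that was also called in the 18S fit (adjusted p = 0.0108) and against siControl replicates 1 to 3 (adjusted p = 0.00318), although its second probe set stood at 0.02. The rest of the 15 largest falls, Aacs (-1.34), an acetoacetyl-CoA synthetase, Ccdc25 (-1.27) and Adgrg2 (-1.25), overlapped between the groups, with the adjusted p between 0.00737 and 0.0373. A second probe set stood at 0.05 for Adgrg2 (adjusted p = 0.814) and at -0.85 for Aacs (adjusted p = 0.0642).

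**Figure D4:**
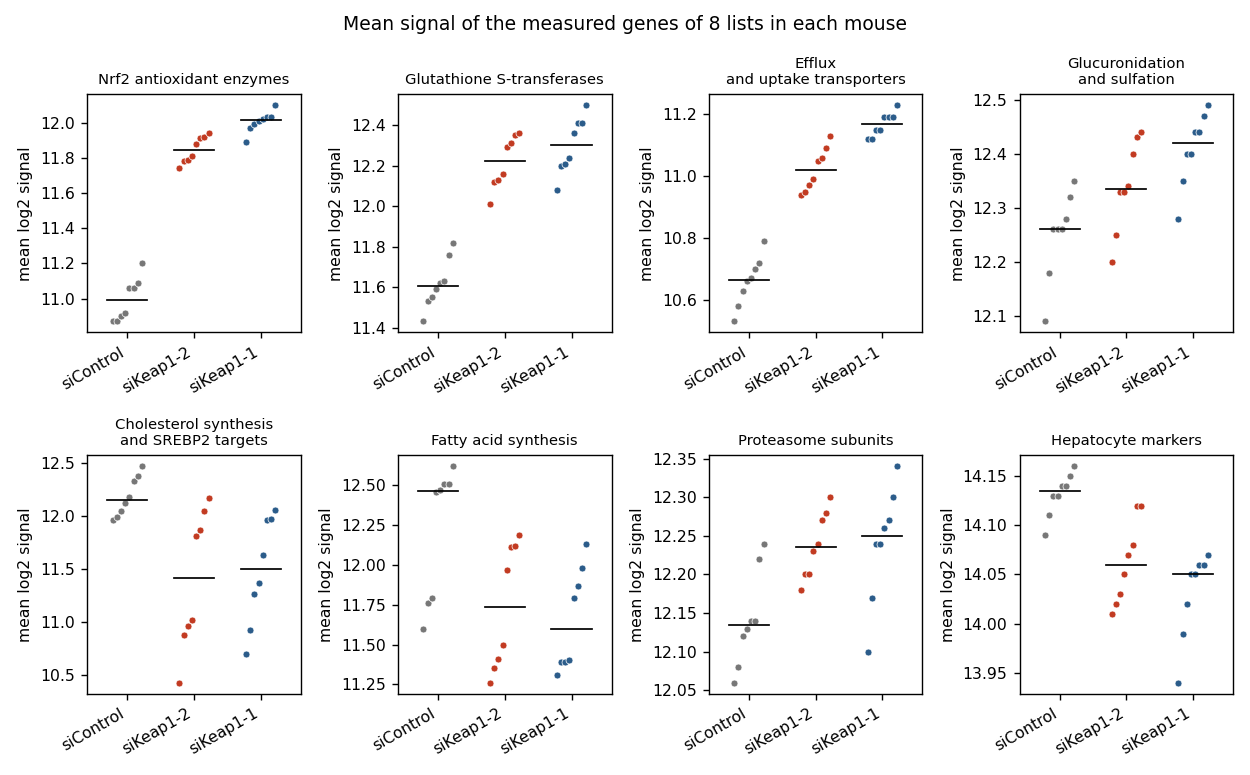
Mean log2 signal (vertical axes, each with its own range) of the measured genes of 8 lists in each siControl (grey), siKeap1-2 (red) and siKeap1-1 (blue) liver, 1 point per mouse sorted by value, with the median as a line. The antioxidant list of the siKeap1-2 mice lies between 11.74 and 11.94, above all siControl mice, whereas their cholesterol synthesis list spreads from 10.43 to 12.17.

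The tissue read as liver throughout: 9 measured hepatocyte markers had list means of 14.01 to 14.12 with siKeap1-2 and 14.09 to 14.16 with siControl, and 0 of 9 were called. Adipocyte, muscle and pancreas markers were near the bottom of the scale (list means 4.66 to 4.87 and 4.53 to 4.77, 0 of 10 called). In bulk tissue fewer cells of a type and less RNA per cell cannot be told apart. Of 12 Kupffer cell markers, 10 had a negative change, with a median of -0.21 and list means of 9.77 to 11.01 against 10.13 to 11.02. Timd4, a phosphatidylserine receptor of resident macrophages, fell by 1.16 on the log2 scale (limma adjusted p = 0.0183) and Folr2, a folate receptor, by 0.71 (adjusted p = 0.0471), whereas Marco, a scavenger receptor, rose by 1.49 (SE 0.36, adjusted p = 0.0122). These 3 were 25.0% of the list, beside 6.6% of all genes called. None of the 3 was called in the 18S fit or against siControl replicates 1 to 3. Recruited myeloid markers gave 1 rise in 12, Trem2 (0.50, adjusted p = 0.0158), and endothelial markers 1 fall in 13, Cdh5 (-0.32), neither called in those fits. Their shares called, 8.33% and 7.69%, were near that over all genes. T, B and NK cell, stellate cell and red blood cell markers gave 0 calls among 15, 16 and 4 genes.

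Sox9 and Anxa13, listed as bile duct cell markers, rose while the keratins of that cell type did not pass. Sox9, a transcription factor of bile duct cells, lay at 8.66, 8.87 and 9.34 with siKeap1-2 and at 7.47, 7.90 and 8.61 with siControl (log2 fold change 0.96, SE 0.13, limma adjusted p = 2.7e-05), although a second probe set stood at 0.03 (adjusted p = 0.881). Anxa13, an epithelial annexin, rose by 0.96 (SE 0.20, adjusted p = 0.00437). Krt7 (-0.33, adjusted p = 0.211), Krt19 (-0.36, adjusted p = 0.32) and Epcam (-0.38, adjusted p = 0.102) did not pass, and the median of the 11 measured markers was -0.20. The largest log2 fold change of the list, 1.65, belonged to a further marker that did not pass. Of the list 18.2% were called, beside 6.6% over all genes. List means were 6.33 to 6.67 with siKeap1-2 and 6.22 to 6.78 with siControl.

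Set directly against siKeap1-1, siKeap1-2 differed in 44 genes (0.242% of 18194), 22 higher and 22 lower, of which 25 did not overlap. Without siKeap1-2 replicate 1 or 2 it differed in 26. The siControl means did not enter this contrast, but the siControl arrays were part of its pooled spread. With only the arrays of the 2 groups compared, 34 genes differed. The 18S signal was 10.17 to 10.44 in siKeap1-1 replicates 1 to 3 and 11.17 to 11.43 in replicates 4 to 8. With that signal as a covariate 50 genes differed. Of the 22 genes higher with siKeap1-2, 10 were also higher than with siControl, 1 was lower (Keap1) and 11 were not called against siControl. Of the 22 lower, 5 were higher than with siControl, 6 lower and 11 not called. Exporters were among those that rose less with siKeap1-2: Abcc4 was lower by a log2 difference of -1.04 (limma adjusted p = 0.0087) and Abcc12 by -1.32 (adjusted p = 0.0301). Nqo1 (-0.31, adjusted p = 0.282), Srxn1 (-0.38, adjusted p = 0.128), Gsta2 (-0.30, adjusted p = 0.476), Gclc (-0.30, adjusted p = 0.476) and Cbr3 (-0.77, SE 0.20, adjusted p = 0.16) did not pass, which does not show that they were equal.

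In several genes the order of the 3 groups did not follow that of Keap1. Marveld3, a tight junction protein, lay at 6.64, 7.16 and 7.95 with siKeap1-2 and at 5.27, 5.83 and 6.45 with siControl, and was 1.87 log2 units higher than with siKeap1-1 (limma adjusted p = 0.000688). Wfdc2, a secreted protease inhibitor of epithelia, lay at 9.12 to 9.64 against 7.80 to 8.85 with siControl and was 0.86 above siKeap1-1 (adjusted p = 0.00119). Kdf1, a keratinocyte differentiation factor whose promoter match is printed above, lay at 9.44, 9.60 and 9.81 against 8.62, 8.67 and 8.74 (log2 fold change 0.92, SE 0.07, adjusted p = 2.6e-09) and was 0.66 above siKeap1-1 (adjusted p = 2.38e-05). Lad1, an anchoring filament protein (1.06 against siControl and 0.88 against siKeap1-1), and Ptgfrn, a tetraspanin partner (1.23 and 0.73), followed the same order, with siKeap1-2 highest. Against siControl the call of Marveld3 was lost with the 18S covariate (1.43, adjusted p = 0.0562), and second probe sets of Marveld3 (0.21, adjusted p = 0.188) and Ptgfrn (0.24, adjusted p = 0.253) did not pass.

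The group means of Anxa13, Nrxn2, Ctps, Trak1 and Gnai1 followed the order of Keap1 loss, with the siKeap1-2 mean between those of siControl and siKeap1-1. Gnai1 was not called against siControl (0.42, limma adjusted p = 0.243). Its siKeap1-2 mice, at 8.80 to 10.74, spanned the whole siControl range of 9.25 to 9.79. Anxa13 was at 6.84, 7.61 and 7.90 with siKeap1-2, a log2 difference of -2.27 from siKeap1-1 (adjusted p = 1.05e-06), the largest difference between the siRNAs, and Nrxn2, a cell adhesion gene, rose by 1.18 against siControl but differed from siKeap1-1 by -1.51 (adjusted p = 5.44e-05); its second probe set stood at 0.09 (adjusted p = 0.446) against siControl. Ctps, a CTP synthase, rose by 0.42, a call not kept with the 18S covariate (0.41, adjusted p = 0.321), and differed from siKeap1-1 by -0.64 (adjusted p = 0.00745). Trak1 (0.64, adjusted p = 0.00131) and E2f3 (-0.59, adjusted p = 0.00131) differed between the siRNAs without a call against siControl (-0.18 and -0.16). The H2-Q2 class I gene (1.61), Enho, a secreted peptide of liver (1.09), and Cnksr1 (0.83) were higher with siKeap1-2 than with siKeap1-1, and Gnai1 (-0.97), Golm2 (-0.82), Fxyd3 (-0.66) and Kitl (-0.66) lower, with the adjusted p between 0.00178 and 0.047. Group means were highest with siKeap1-2 for H2-Q2, Enho and Cnksr1, and lowest with siKeap1-2 for E2f3, Golm2, Fxyd3 and Kitl, so these means did not follow the order of Keap1. Like E2f3, Enho (0.43, adjusted p = 0.235), Fxyd3 (-0.22, adjusted p = 0.365) and Kitl (-0.30, adjusted p = 0.179) were not called against siControl. Their order beside siControl is therefore not established. H2-Q2, Cnksr1 and Golm2 were called against siControl, but not with the 18S covariate or against siControl replicates 1 to 3.

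**Figure D5:**
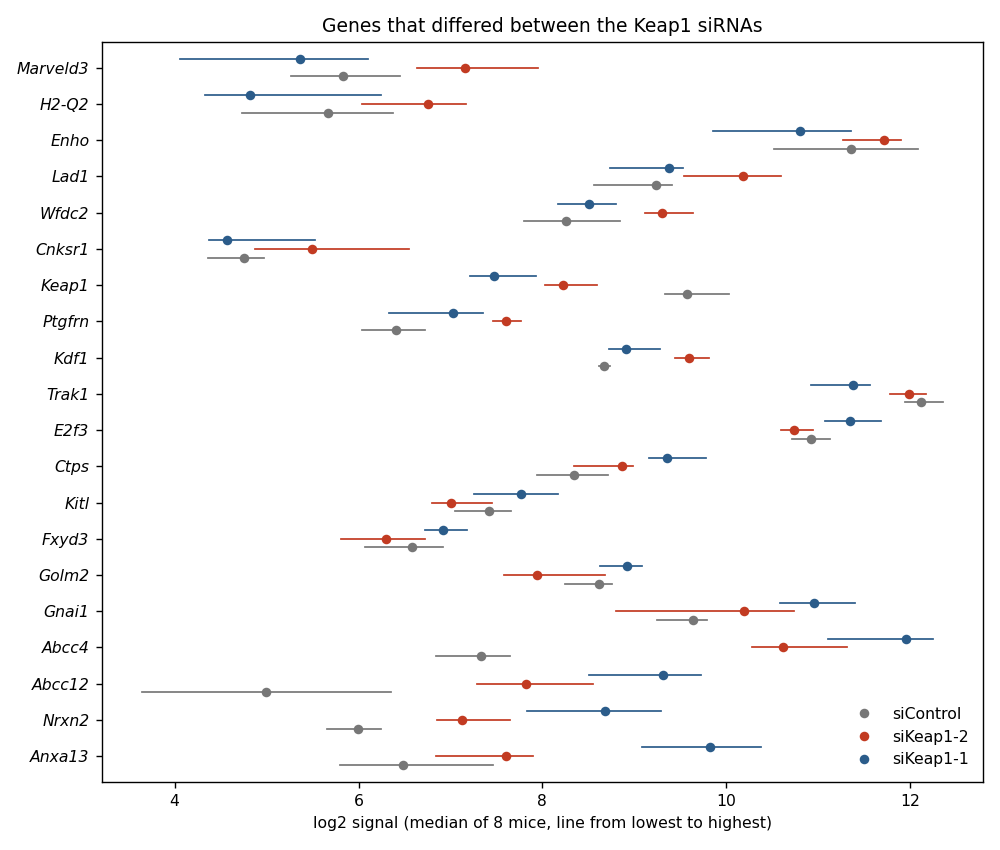
Log2 signal (horizontal axis) of the 10 genes most above and the 10 most below siKeap1-1 with siKeap1-2; points are medians of 8 mice and lines run from the lowest to the highest mouse, in grey for siControl, red for siKeap1-2 and blue for siKeap1-1. Marveld3, Wfdc2, Kdf1 and Ptgfrn are highest with siKeap1-2 without overlap, whereas Anxa13 and Nrxn2 reach farther with siKeap1-1.

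Within the siKeap1-2 group Keap1 signal and the mean of the 21 antioxidant enzymes were compared across the 8 mice. Pearson's r was 0.76 (exact permutation p = 0.0398, adjusted 0.0795 over 2 relations) and Spearman's rho was 0.71 (exact permutation p = 0.0576, adjusted 0.115), so that neither passed after adjustment. Without the 2 mice farthest from the Keap1 median r was 0.51, and with the median in place of the mean of the antioxidant genes it was 0.08. In the siControl group r was 0.03 (exact permutation p = 0.943) and rho 0.12 (exact permutation p = 0.793). No graded relation between the remaining Keap1 signal and the antioxidant list was therefore resolved among these mice.

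Of the 1200 genes that differed from siControl, 703 had a second probe set. It had the same sign in 531 (75.5%), was called in the same direction in 177 and in the opposite direction in 10.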

How the data were processed

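Liver RNA of 24 mice, 8 per group, was hybridised to 24 Affymetrix whole-genome mouse arrays. The deposited values are log2 signals that the authors obtained with RMA, which corrects background, quantile-normalises the arrays and summarises probes to probe sets; no source used here names its version. RMA compresses changes of dim and of nearly saturated probe sets. The number of mice limits the precision. Groups were taken from the labels.

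The 45101 probe sets were reduced by 64 manufacturer's controls, and limma (version 3.58.1, R 4.3.3) was fitted to the other 45037 with a mean for each of 3 groups and no covariate (lmFit, eBayes). Adjusted p-values are Benjamini-Hochberg values over all 45037, at a threshold of 0.05. The two-way ANOVA of the study's methods needs a factor that the labels do not give. Of these probe sets 34945 carried 1 gene in the platform annotation, 932 several and 9160 none; each of 18194 genes was read from its single-gene probe set with the highest mean over 24 arrays. Log2 fold changes are differences between group means of log2 signals, and fold values are their antilogs. The fit was tested on simulated data. Single values were tested by exact permutation over mice (SciPy 1.17.1, Python 3.11.15); p-values measure the spread between these mice.

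Genes are named by rule: the 15 largest rises and falls, up to 3 called members of each list, the 10 largest differences in each direction between the Keap1 siRNAs, and the transcripts that the study measured by PCR; other list members are given as examples. Members and lists were chosen with earlier results of these data known. Replicate numbers were not treated as pairing mice across groups. The alternatives were other normalization, centring, moderation and array weights, only the arrays of the 2 groups compared, dim probe sets left out, the replicate block, the 18S covariate, subsets of siControl mice, other thresholds and each mouse left out.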

Additional observations from a re-analysis of the deposited data

Results flagged for a closer look

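Among 206 groups of 8 mice tested for 1 value far from the rest (its gap to the nearest other mouse over the group's range, against Dixon's critical value), 7 stood apart; chance gives about 1 in 20 groups. Replicate 6 of siControl was the mouse apart for 3 genes: Gsta2 read 11.97 there against 10.91 to 11.38 in the other siControl mice, Cyp17a1 read 11.78 against 10.53 to 11.05, and H2-Q2 read 4.73 against 5.6 to 6.37. Cyp2g1 was low in siControl replicate 1, at 5.81 against 6.64 to 7.3. With siKeap1-2, Ces2e was low in replicate 5 (10.61 against 11.08 to 11.43), Folr2 high in replicate 7 (9.97 against 8.18 to 8.94) and Cnksr1 high in replicate 2 (6.55 against 4.87 to 5.65).

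The 18S ribosomal RNA control probe set used as the covariate, which is no part of the gene comparison, was 1.18 log2 units higher with siKeap1-2 than with siControl (means 10.86 and 9.67, exact two-sided permutation p = 0.00155 over 8 and 8 mice). The other murine 18S control probe sets read 6.04 to 6.73 and 4.71 to 5.08 with siKeap1-2. With siControl they read 5.82 to 6.53 and 4.45 to 4.94.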

How the results depend on the processing

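Keap1 kept its direction and call under each setting tried and was between -1.41 and -1.31 when single mice were left out. With only the arrays of the 2 groups compared in the fit, 1143 genes differed from siControl (505 higher, 638 lower). The limma adjusted p of Keap1 was then 1.64e-06. Against siControl, 1200 genes (518 higher, 682 lower) became 186 (163 and 23) with the 18S covariate, 214 (186 and 28) with siControl replicates 1 to 3 only, and 1206 lower with siControl replicates 4 to 8 only; an adjusted p under 0.01 left 450 (255 and 195), and a fold over 2 with unadjusted p under 0.01 gave 121 (93 and 28). The contrast with siKeap1-1 fell from 44 genes to 22 and 20 under the latter criteria. Leaving out single mice gave 805 to 1399 genes in all, 392 to 514 higher and 413 to 885 lower, with 445, 430 and 426 lower without siControl replicate 6, 7 or 8 and 413 without siKeap1-2 replicate 2; the contrast with siKeap1-1 gave 26 to 46, with 26 without siKeap1-2 replicate 1 or 2. The correlation of Keap1 with the antioxidant mean was 0.65 to 0.91 without single mice and 0.08 with the median of the genes (exact permutation p = 0.837). Cux2 turned to -0.18 when the probe sets of a gene were averaged. In all, 2488 values of named genes kept their side of the threshold, 361 lost it, 2 gained it and 1 reversed; the causes were not tested. Residual correlations of mice with the same number ran from -0.171 to 0.28 between siKeap1-2 and siControl. Between siKeap1-2 and siKeap1-1 they ran from -0.112 to 0.252. The same number was the best match of siKeap1-2 replicates 5 and 7 in siControl and of replicate 8 in siKeap1-1. Because the sign varied, numbers were not treated as pairs. The replicate block gave 1179 genes (509 higher, 670 lower), and 30 against siKeap1-1. Fewer siControl mice also raise the standard error, to 0.12 with replicates 1 to 3.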
